A study of Mus musculus with 46 samples.

Results

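The mouse mitochondrial genome encodes proteins of the respiratory chain and the ATP synthase. Ribosome footprints and poly(A) RNA of 9 of these genes were followed here through loss of Ctu1 and inhibition of mTOR: mt-Nd1, mt-Nd2, mt-Nd4 and mt-Nd5 of complex I, mt-Cytb of complex III, mt-Co1, mt-Co2 and mt-Co3 of complex IV, and mt-Atp6 of complex V. They were picked by symbol, as 9 of the 10397 symbols that stand on 1 entry of the DMSO tables. The tables list 13 mitochondrial protein genes in all.

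The cells were EPP2, a murine pancreatic cancer line, in the form of a clone that grew from a single cell and expresses Cas9 when doxycycline is added. The study asked how mTOR and the modification of wobble uridines in tRNA act together on translation. There were 23 footprint libraries and 23 poly(A) RNA libraries, 46 in all, matched by their labelled group and replicate number, and each such pair is called a culture here: 6 control cultures with DMSO, 6 control cultures with torin 1, 5 Ctu1 iKO cultures with DMSO and 6 Ctu1 iKO cultures with torin 1. Torin 1, an inhibitor of the mTOR kinase, was given at 300 nM for 2 h, and DMSO is its solvent. In the Ctu1 iKO cultures, knockout of Ctu1 was induced in the pool of cells with 300 ng/ml doxycycline, 4 days before the experiment. The labels call the other cultures WT or Control. By the methods, controls carried guide RNAs against non-coding regions or went without doxycycline, and which of these applied to each control library is not given in the sources used here. All cultures are the same clone, so that none of the differences below was seen in a second line. The methods describe only 2 replicates as biologically independent, made on consecutive days, while the legends count more for footprints, and the labels number up to 6 per group. The labels do not say which numbers are separate cultures, and where they are not, p-values measure a spread that is partly technical.

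Transcripts of the mitochondrial genome are translated inside the organelle by mitochondrial ribosomes, whose proteins are made in the cytosol from nuclear genes and imported. Cytosolic translation of ribosomal protein mRNAs depends on mTORC1 through their 5′ terminal oligopyrimidine motif, whereas mitochondrial mRNAs have almost no 5′ leader. Ctu1 thiolates the wobble uridine of cytosolic tRNAs that read lysine, glutamine and glutamate codons. In mitochondria the same position is modified by other enzymes, Mto1, Gtpbp3 and Trmu. The footprint protocol used cycloheximide, which stalls cytosolic ribosomes and does not act on mitochondrial ones, and collected monosomes from detergent lysates. How many mitochondrial ribosomes entered the collected fraction is not given in the sources used here.

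The first 30 bases of each coding sequence are shown because they carry the departures from ATG at the start, and because several of them exist a second time in the nuclear genome. They are from the mitochondrial chromosome of GRCm38, plus strand, 5′ to 3′, with the start codon in capitals:
mt-Nd1: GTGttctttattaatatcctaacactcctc
mt-Nd2: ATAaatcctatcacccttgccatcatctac
mt-Co1: ATGttcattaatcgttgattattctcaacc
mt-Co2: ATGgcctacccattccaacttggtctacaa
mt-Atp6: ATGaacgaaaatctatttgcctcattcatt
mt-Co3: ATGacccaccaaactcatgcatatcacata
mt-Nd4: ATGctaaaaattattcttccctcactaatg
mt-Nd5: ATCaatattttcacaacctcaatcttatta
mt-Cytb: ATGacaaacatacgaaaaacacacccatta

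In map order the genes occupy chrM:2751-3707 (mt-Nd1), chrM:3914-4951 (mt-Nd2), chrM:5328-6872 (mt-Co1), chrM:7013-7696 (mt-Co2), chrM:7927-8607 (mt-Atp6), chrM:8607-9390 (mt-Co3), chrM:10167-11544 (mt-Nd4), chrM:11742-13565 (mt-Nd5) and chrM:14145-15288 (mt-Cytb), all in GRCm38 and all without introns. The printed starts of mt-Co2, mt-Atp6, mt-Co3 and mt-Nd4 each have 1 exact copy on the minus strand of chromosome 1, and the start of mt-Co1 has 1 on chromosome 2. The starts of mt-Nd1, mt-Nd2, mt-Nd5 and mt-Cytb have 0 exact copies in the 21 nuclear chromosomes. The copy on chromosome 1 is long: chr1:24612750-24616184 is the complement of positions 6394 to 9828 of the mitochondrial genome with 1 mismatch over 3435 bases, and chr1:24611535-24612756 continues it to position 11042 with 0 mismatches over 1222 bases. It spans 7 annotated pseudogenes, and 0 of them are listed in the tables.

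Codons that Ctu1-modified tRNAs read in the cytosol outnumber their partners ending in G in these genes. Of 3338 codons in the 9 genes, 90 were AAA, 68 were CAA and 69 were GAA, 227 together. The partners were found less often, with AAG 1 time, CAG 3 times and GAG 5 times. The share of AAA, CAA and GAA ran from 4.09% of codons in mt-Co1 to 10.6% in mt-Co2.

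Total footprint counts ran from 4602092 to 52907878 per library, and total RNA counts from 129881946 to 325494304. Ctu1 itself is listed only in the DMSO tables. Its footprints were at 2.52 ± 0.65 CPM (counts per 1e+06 counts of a library; SD, n = 6) in control and at 1.78 ± 0.41 CPM (n = 5) in Ctu1 iKO, a difference that did not pass the test (log2 -0.54, edgeR adjusted p = 0.353). Its RNA in replicates 1 to 3 was at 4.61 ± 0.12 against 4.62 ± 0.30 CPM (n = 3 each; adjusted p = 0.926, edgeR). Counts over a whole gene do not show whether its sequence was edited, so these values do not check the knockout. A score was made over the 200 genes that differed most with torin 1 in RNA replicates 1 and 2 of these samples, whose own placement was therefore set by the choice and checks nothing. The score was above 0 in the footprint libraries labelled torin 1 and below 0 in those labelled DMSO. It placed 6 RNA libraries on the other side from their label: Ctu1 iKO DMSO replicates 4 and 5, and replicates 5 and 6 of both torin 1 groups. For these 6 the RNA does not match the footprint library of the same label and number in this score. For this reason transcripts were compared in replicates 1 to 3, with the wider sets given where they change a value. Of markers checked for the label pancreatic cancer, 4 of 4 mesenchymal genes were listed in the RNA of control cells with DMSO (Vim, Cdh2, Fn1 and Zeb1, summing to 5280 to 18248 CPM per library) and 4 of 6 epithelial genes (227 to 585 CPM, with Krt7 and Cdh1 not listed). Of 4 acinar and 3 endothelial markers 0 were listed, and of 3 immune markers only Cd68, at no more than 2.53 CPM.

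The mitochondrially encoded genes gave strong footprints in every library. Together they held a median of 1.33% of all footprints in control cells with DMSO (range 1.09 to 1.55%, n = 6), 1.58% with torin 1 (0.901 to 2.00%, n = 6), 1.23% in Ctu1 iKO cells with DMSO (0.662 to 1.42%, n = 5) and 1.71% in Ctu1 iKO cells with torin 1 (1.11 to 3.61%, n = 6). All 4 groups overlapped. The highest value belonged to Ctu1 iKO torin 1 replicate 1, which was also the shallowest library, and the lowest to Ctu1 iKO DMSO replicate 5. Over all footprint libraries the share varied 5.45-fold, and over all RNA libraries 2.34-fold, from 0.692 to 1.62%. In such bulk libraries a change in the number of mitochondria, in RNA per mitochondrion or in ribosomes per RNA cannot be told apart from the footprint share alone. The share is taken of all footprints, so a change in the footprints of cytosolic ribosomes moves it too and cannot be told apart either.

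**Figure D1:**
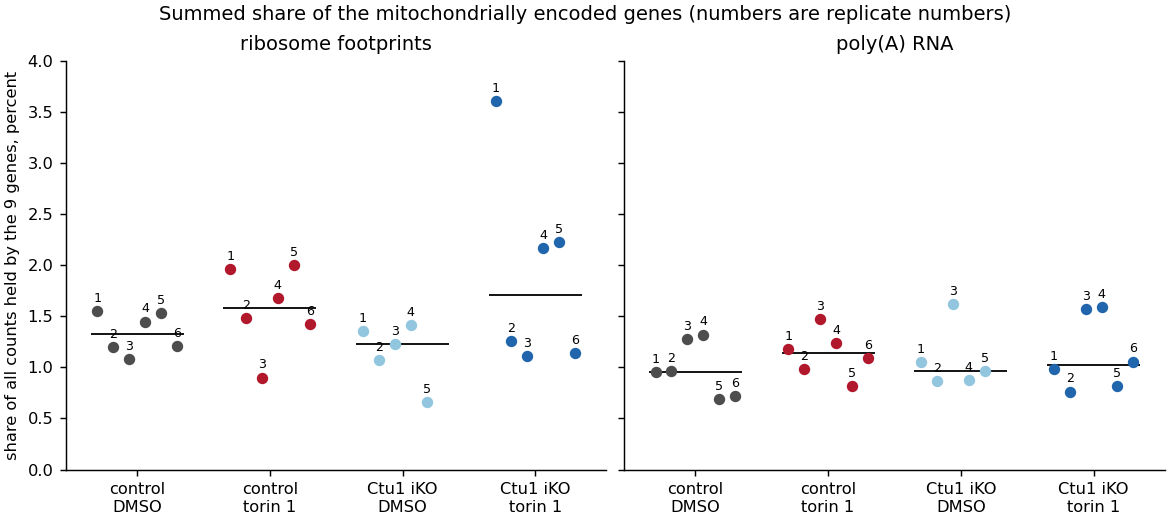
Share of all counts held by the 9 mitochondrially encoded genes in each library, in percent (y axis), for footprints (left) and poly(A) RNA (right), by group (x axis). Points are libraries with their replicate number, and lines are group medians. Ctu1 iKO torin 1 replicate 1 stands at 3.61% of footprints, above all other libraries, and the groups overlap in both assays.

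Per kilobase of coding sequence, footprints in control cells with DMSO were densest on mt-Co1 and mt-Co2 of complex IV and thinnest on the 4 genes of complex I. The catalytic subunits mt-Co1 and mt-Co2 led with 2668 ± 387 and 2552 ± 357 CPM per kb (SD, n = 6). They were followed by mt-Atp6, the proton channel subunit of the ATP synthase, at 1808 ± 243, mt-Cytb, the electron-carrying core of complex III, at 1694 ± 278, and mt-Co3 at 1509 ± 222 CPM per kb. The 4 complex I subunits, all parts of its membrane arm, came last with 809 ± 150 for mt-Nd2, 701 ± 154 for mt-Nd1, 544 ± 113 for mt-Nd5 and 475 ± 98 for mt-Nd4. Of the 8 steps between neighbours in this order, 6 were in the same direction in 6 of 6 libraries and passed a two-sided exact sign-flip permutation test (p = 0.03125, the smallest 6 libraries can give; adjusted p = 0.0417 over 8 steps). The steps from mt-Atp6 to mt-Cytb and from mt-Cytb to mt-Co3 held in 5 of 6 libraries and did not pass (exact permutation test, adjusted p = 0.0625).

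The poly(A) RNA gave another order. In the same 6 cultures mt-Co1 was again the highest at 2515 ± 625 CPM per kb (SD, n = 6), followed by mt-Cytb at 1971 ± 467, mt-Nd1 at 1795 ± 624, mt-Nd2 at 761 ± 310, mt-Nd5 at 401 ± 109 and mt-Nd4 at 375 ± 80. Among these 6 genes, the steps from mt-Cytb to mt-Nd1 (4 of 6 libraries; adjusted p = 0.125) and from mt-Nd5 to mt-Nd4 (5 of 6; adjusted p = 0.0714) did not pass the exact permutation test. Counted per kilobase of 100-base windows that are absent from the nuclear genome, a length chosen after the data were seen, mt-Nd4 moved up above mt-Nd2 and mt-Nd5 with 1028 ± 220. Under that length 3 of the 5 steps, from mt-Co1 to mt-Cytb, from mt-Nd1 to mt-Nd4 and from mt-Nd2 to mt-Nd5, held in 6 of 6 libraries with log2 gaps of 0.84 to 0.98. Their p of 0.03125 is the smallest that 6 libraries allow and came to 0.0521 after adjustment over 5 steps (exact permutation test), so that a pass was out of reach for 3 such steps.

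The other 3 genes were almost missing from the RNA counts. In the 6 control cultures with DMSO the RNA of mt-Co2 was between 0.175 and 3.33 CPM per kb, that of mt-Atp6 between 0.0978 and 1.5, and that of mt-Co3 between 0.0161 and 0.904. These levels moved with the replicate numbers: mt-Co2 ran from 0.120 to 0.211 CPM in the 8 RNA libraries of replicates 1 and 2 and from 1.5 to 3.08 CPM in the 15 libraries of replicates 3 to 6, without overlap. Its raw counts were between 16 and 812. In the footprints of the same cultures the same 3 genes held 27.7 to 34.8% of the counts of all 9. In RNA they held 0.0023 to 0.0448%.

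The 3 genes are also those whose sequence stands whole in the nuclear genome. Every 100-base window of mt-Co2, mt-Atp6 and mt-Co3 was identical to a nuclear stretch, against 60.8% of the windows of mt-Nd4, 30.8% of mt-Co1, 3.19% of mt-Nd2 and 0% of mt-Nd1, mt-Nd5 and mt-Cytb. With 28-base windows, nearer to the length of a footprint, the shares were 100% for the same 3 genes, 66.7% for mt-Co1, 63.7% for mt-Nd4, 19.6% for mt-Nd5, 16.1% for mt-Nd2, 9.31% for mt-Cytb and 0% for mt-Nd1. The footprints of the 3 genes were counted all the same. Footprints were counted per gene by STAR, while the rule of the RNA workflow for reads with more than 1 match is not given in the sources used here. The part that this had in the RNA values was not tested. RNA and translational efficiency are therefore given below for 6 genes, mt-Nd1, mt-Nd2, mt-Nd4, mt-Nd5, mt-Cytb and mt-Co1, a choice made after the values were seen. In the tests the intervals of the other 3 were too wide to read, for mt-Co2 RNA with torin 1 in control cells from 0.161 to 10.2-fold.

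**Figure D2:**
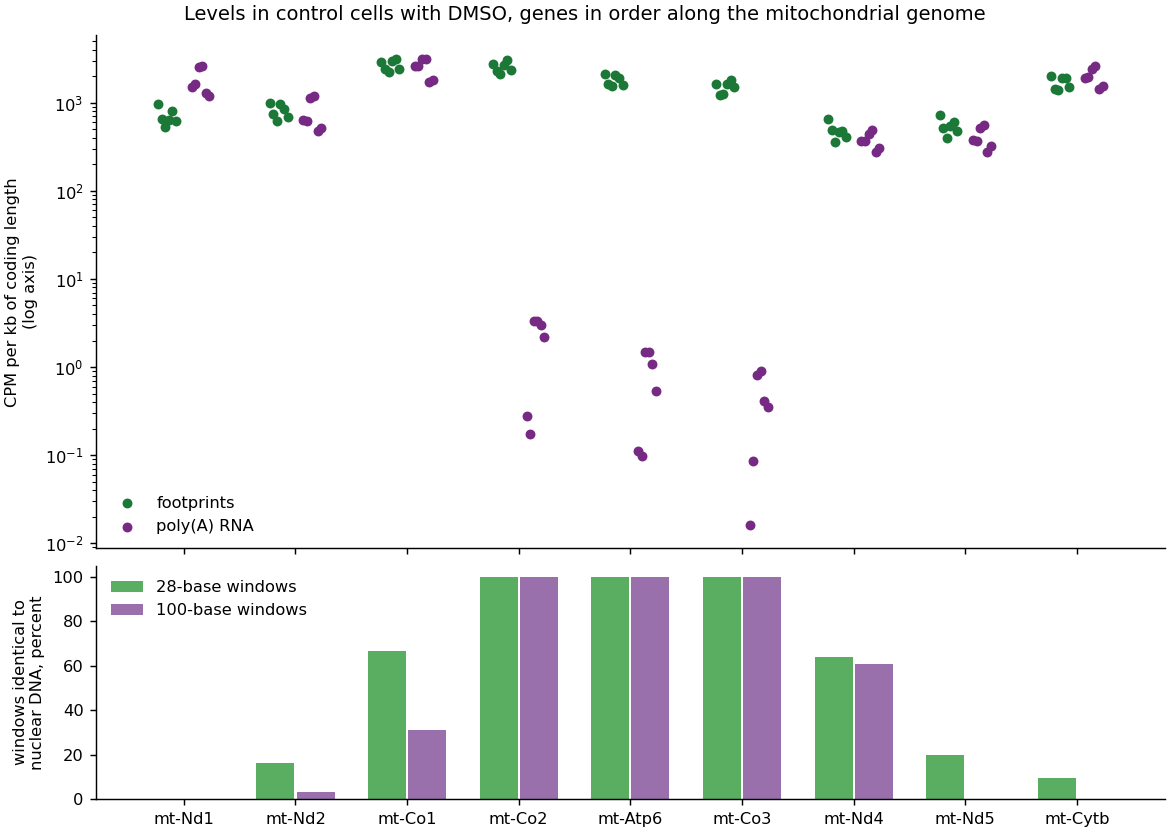
Top: level of each gene in the 6 control cultures with DMSO, in CPM per kb of coding length (log axis), for footprints and poly(A) RNA, with genes in their order along the mitochondrial genome and 1 point per library. Bottom: percent of 28-base and 100-base windows of each gene that are identical to nuclear DNA. The 3 genes at 100% in both windows have RNA levels of at most 3.33 CPM per kb and footprints above those of mt-Nd4.

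The ratio of footprints to RNA, as log2 of CPM over CPM in control cells with DMSO (n = 6), was 0.46 ± 0.57 for mt-Nd5, 0.34 ± 0.45 for mt-Nd4, 0.16 ± 0.62 for mt-Nd2, 0.11 ± 0.48 for mt-Co1, -0.20 ± 0.44 for mt-Cytb and -1.31 ± 0.70 for mt-Nd1. The median over 9634 genes was -0.38. The footprints of mt-Nd1 were thus low for its RNA, at percentile 13.8 of all genes, while the other 5 genes lay at percentiles 59.1 to 86.8. A second ratio took footprints per coding length and RNA per length of windows absent from the nuclear genome. With it mt-Nd4 came to -1.11, near mt-Nd1 at -1.47, and mt-Co1 to -0.51. This length rule was not applied to all genes, so these values cannot be set against the median over all genes. mt-Nd1 encodes the subunit beside the quinone site of complex I and is the first coding sequence after the ribosomal RNAs.

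The genes moved together from culture to culture. After group means were subtracted, footprints of any 2 of the 9 genes correlated with r between 0.80 and 0.99 over the 23 libraries (36 pairs, median 0.94). In RNA, r ran from 0.90 to 0.99 over the 15 pairs of 6 genes. These points share the library and its depth, so the values describe these libraries only. The spread within groups was wide: the SD of log2 footprint CPM was 0.44 to 0.56, at percentiles 85.5 to 93.1 of 9857 genes, whose median SD was 0.28. In RNA of replicates 1 to 3 the SD was 0.31 to 0.61, at percentiles 94.1 to 99.7, with a median over all genes of 0.13.

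Within the group the proportion of mt-Co1 was steady, while those of several other genes varied more for their size. mt-Co1 held 30.8 ± 1.1% of the footprints of the 9 genes in control cells with DMSO (SD, n = 6), and 30.7 ± 1.5%, 30.2 ± 1.0% and 30.4 ± 1.7% in control torin 1, Ctu1 iKO DMSO and Ctu1 iKO torin 1. The proportion of mt-Co2 varied more, with 13.1 ± 0.57%, 13.8 ± 0.96%, 12.7 ± 0.61% and 15.1 ± 2.5% in the same order. Its highest proportion, 18.9%, was in Ctu1 iKO torin 1 replicate 5, and the group overlapped with the other 3. The proportion of mt-Atp6 was 9.23 ± 0.51%, 8.93 ± 0.25%, 8.39 ± 0.42% and 8.10 ± 1.1%. Over all 23 footprint libraries mt-Co1 ran from 27.8 to 32.6%. The complex I genes ran from 4.19 to 5.89% (mt-Nd1), 5.05 to 7.39% (mt-Nd2), 3.85 to 5.97% (mt-Nd4) and 5.94 to 8.87% (mt-Nd5).

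**Figure D3:**
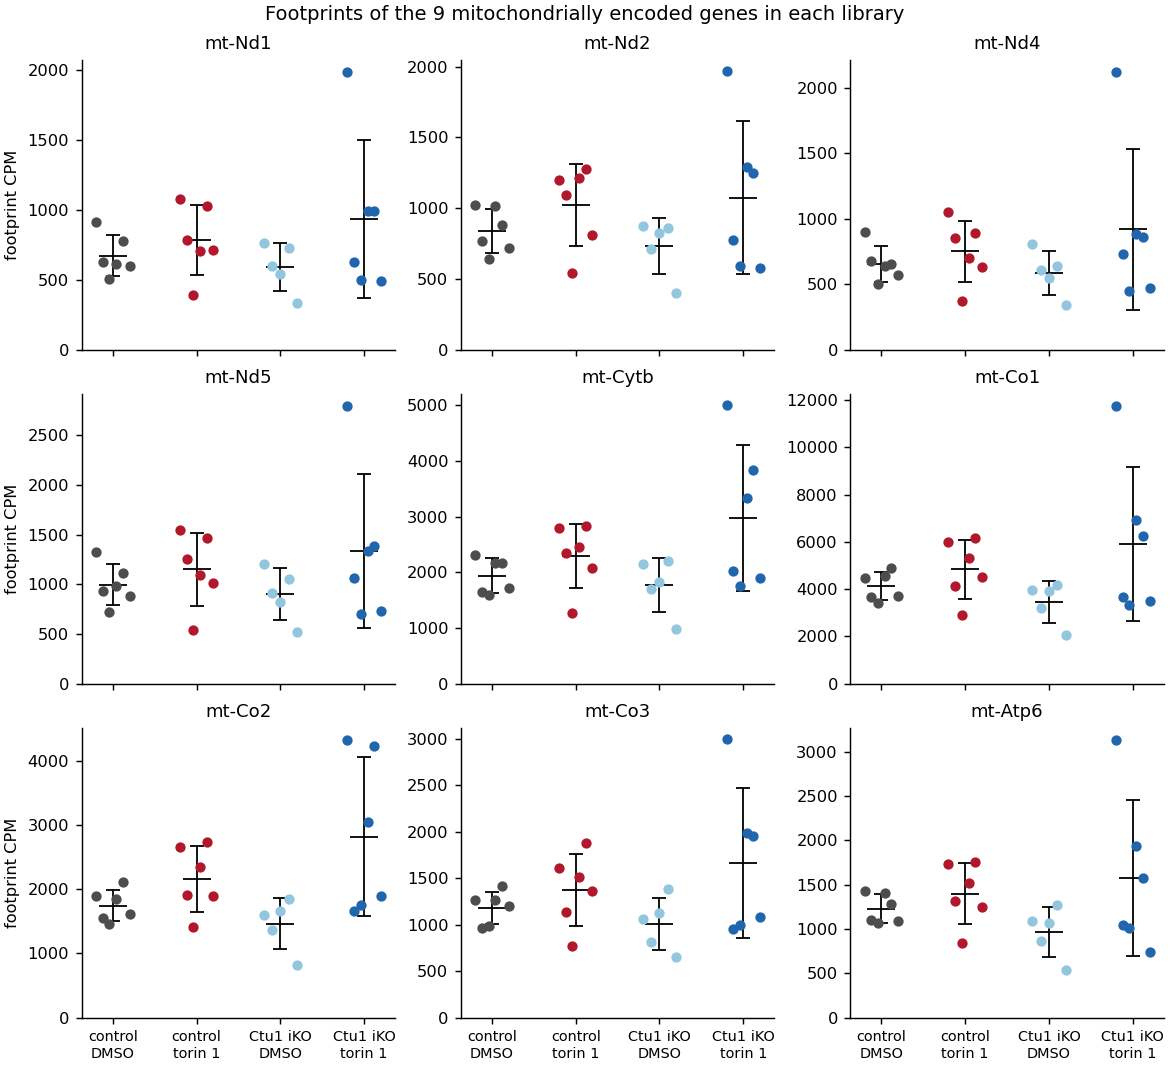
Footprint CPM (y axis, linear from 0) of each of the 9 genes in every library, by group (x axis). Points are libraries, and bars are the mean and SD of 6, 6, 5 and 6 libraries. In each gene the highest point is Ctu1 iKO torin 1 replicate 1, and all groups overlap.

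Loss of Ctu1 without torin 1 was compared first. With DMSO, footprints of all 9 genes were estimated lower in Ctu1 iKO than in control cells, by a median of -0.24 on the log2 scale, and 0 of 9 passed the test. Across all genes tested 2.66% were called. The widest difference was in mt-Atp6. Its footprints were at 1088, 866, 1072, 1269 and 542 CPM in the 5 Ctu1 iKO cultures, and at 1067 CPM at the lowest, 1195 at the median and 1435 at the highest of the 6 control cultures. The groups overlapped, and the lowest value of both was in Ctu1 iKO replicate 5. The ratio was 0.764-fold (95% interval 0.587 to 0.992; edgeR adjusted p = 0.270). mt-Atp6 was the only one of the 9 with an unadjusted p under 0.05.

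The complex IV genes were close behind. mt-Co1 was at 3976, 3183, 3913, 4177 and 2038 CPM in Ctu1 iKO cultures, and between 3404 and 4894 CPM (median 4093) in control cultures. mt-Co2 was at 1605, 1371, 1658, 1849 and 819 CPM, against 1458 to 2108 CPM (median 1731). mt-Co3 was at 1059, 813, 1124, 1381 and 653 CPM, against 968 to 1412 CPM (median 1230). In each of these genes Ctu1 iKO replicates 2 and 5 lay below all control cultures and the other 3 inside their range. The log2 differences were -0.29 ± 0.16 for mt-Co1, -0.30 ± 0.17 for mt-Co2 and -0.27 ± 0.17 for mt-Co3 (SE).

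Among the complex I genes the differences were -0.22 ± 0.19 for mt-Nd1, -0.24 ± 0.19 for mt-Nd2, -0.20 ± 0.19 for mt-Nd4 and -0.18 ± 0.19 for mt-Nd5 (SE). mt-Cytb had the narrowest, -0.17 ± 0.18. Over the 9 genes the 95% intervals reached from -0.77 to 0.23, so that a loss larger than the lower bound lies outside the intervals of all 9. Without Ctu1 iKO replicate 5 the median was -0.084. DESeq2 called 0 of 9 as well, with 6.73% of all genes called, and so did edgeR with the replicate number as a block, with 3.5%. Across the 9 genes, which share their libraries, the change correlated with the share of AAA, CAA and GAA codons at r = -0.07 and with that of AAA alone at r = 0.31 (n = 9 genes, given as a description).

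RNA of the 6 genes did not pass the test either (0 of 6 with edgeR, 0 at an unadjusted p under 0.05, 0 with DESeq2). Of all genes edgeR called 5.12% and DESeq2 15.1%. mt-Cytb RNA was at 2584.5, 2223 and 3755 CPM in Ctu1 iKO cultures and at 2177, 2227 and 2784 CPM in control cultures of replicates 1 to 3. The median log2 difference of the 6 genes was 0.15, from 0.03 for mt-Nd1 to 0.30 for mt-Nd4. With the replicate number as a block, mt-Cytb and mt-Nd4 passed (2 of 6, lowest adjusted p = 0.0415, edgeR), where 28% of all genes did. Without Ctu1 iKO replicate 3 the median was -0.13. Translational efficiency, tested as the footprint difference beyond that in RNA, had a median of -0.23 and 0 of 6 genes called, 0 at an unadjusted p under 0.05 and 0 with DESeq2. Of all genes edgeR called 0% and DESeq2 0.208%. This median was 0.092 without Ctu1 iKO replicate 3.

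Torin 1 in control cells was compared next, to set these genes against the fall in cytosolic ribosomal protein synthesis. Footprints of all 9 were estimated slightly higher with torin 1, with a median log2 difference of 0.13 and a range of 0.09 to 0.22. The test called 0 of 9 (0 at an unadjusted p under 0.05, 0 with DESeq2), and 7.24% of all genes, or 10.8% with DESeq2. mt-Co2 had the largest difference. It ran from 1413 over a median of 2133 to 2732 CPM in the 6 torin 1 cultures, and from 1458 over 1731 to 2108 CPM with DMSO. The torin 1 cultures spread below and above the DMSO cultures. The ratio was 1.16-fold (95% interval 0.936 to 1.44; edgeR adjusted p = 0.445).

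In this comparison same-numbered cultures deviated together over all genes, so differences within numbers can be read. All 9 genes were higher with torin 1 in replicates 1, 2, 4, 5 and 6, by 0.21 to 0.41 on the log2 scale of CPM on average, and all 9 were lower in replicate 3, by 0.31. Scaling by library totals also moves the median of all genes up with torin 1, as given in the section on processing, so part of these values is a general shift. With the normalization of the test the median of the 9 genes was 0.13. With the replicate number as a block, 1 of the 9 genes passed, mt-Co2, with 0.19 ± 0.06 (SE; edgeR adjusted p = 0.0377), beside 20.5% of all genes.

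RNA of the 6 genes was also estimated higher with torin 1 in control cells. mt-Cytb was at 2770, 2340 and 3350 CPM with torin 1 in replicates 1 to 3, and at 2177, 2227 and 2784 CPM with DMSO. mt-Co1 was at 5065, 4046 and 5635 CPM, against 4079, 4014 and 4889 CPM. Each number was higher with torin 1 in both genes, while the groups overlapped. Replicate 3 was the highest in both treatments, and for mt-Co1 torin 1 replicate 2 (4046 CPM) also lay below DMSO replicate 1 (4079 CPM). Without the block 0 of 6 passed (0 at an unadjusted p under 0.05, 0 with DESeq2; median log2 difference 0.20), beside 13% of all genes with edgeR and 20.4% with DESeq2. Same-numbered RNA libraries deviated together, and with the replicate number as a block 6 of 6 passed, with differences between 0.17 for mt-Nd1 and 0.26 for mt-Cytb (edgeR adjusted p from 0.000924 to 0.0184). In that fit 44.1% of all genes were called, so a call was common. With replicate 4 added, chosen after the data were seen, the blocked fit called 2 of 6, mt-Co1 and mt-Cytb (43.8% of all genes). Without control torin 1 replicate 3 the median without a block was 0.054, and mt-Nd1 and mt-Nd2 were on the other side of 0. The footprints of these 6 genes beyond their RNA differed by a median of -0.14 (0 of 6 called with edgeR, 0 at an unadjusted p under 0.05, 0 with DESeq2), with 1.18% of all genes called by edgeR and 2.36% by DESeq2. That median was 0.31 without control torin 1 replicate 3.

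The nuclear genes of cytosolic ribosomes were read in the same libraries. With torin 1 in control cells footprints fell for 75 of 77 cytosolic ribosomal protein genes, with a median log2 difference of -0.97, and the largest fall was that of Rps27 at -1.60 ± 0.10 (SE; edgeR adjusted p = 9.1e-08). Over all 9856 genes the median was 0.01. The proteins of the mitochondrial ribosome, which are made in the cytosol, fell in 5 of 78 cases (median -0.13), beside 7.24% of all genes called in either direction, with Mrpl19 of the large subunit at -0.70 ± 0.12. Of the nuclear subunits that share complexes with the 9 genes, 1 of 36 in complex I fell (Ndufb5, -0.40 ± 0.10), 0 of 9 in complex III (2 at an unadjusted p under 0.05, 1 with DESeq2), 0 of 11 in complex IV (0 and 0), and 1 of 14 in complex V, Atp5g2, which encodes the c-ring subunit, at -0.62 ± 0.09. With the replicate number as a block, where 20.5% of all genes were called, 18 of 78 mitochondrial ribosomal proteins fell, as did 4 of 36, 2 of 9 and 2 of 14 subunits of complexes I, III and V, and 2 of 11 of complex IV rose.

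Torin 1 in Ctu1 iKO cells gave the widest differences. Footprints of all 9 genes were estimated higher with torin 1, by a median of 0.61 on the log2 scale, and 0 of 9 passed the test, beside 8% of all genes. mt-Co2 led. It was at 4330, 1656, 1747, 3045, 4226 and 1891 CPM in the 6 torin 1 cultures and at 1605, 1371, 1658, 1849 and 819 CPM in the 5 DMSO cultures. Replicates 1, 4 and 5 with torin 1 stood above all others, while replicates 2 and 3 lay inside the range of the DMSO cultures. The ratio was 1.81-fold (95% interval 1.18 to 2.77; edgeR adjusted p = 0.0931). DESeq2 called mt-Co2 alone of the 9 (adjusted p = 0.0214, with 11.7% of all genes called), and so did edgeR with all 4 groups in 1 fit (adjusted p = 0.0209, 12% of all genes).

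The pattern over cultures was shared. mt-Cytb was at 4998, 2014, 1761, 3341, 3830 and 1901 CPM with torin 1, against 985 to 2204 CPM with DMSO. mt-Co1 was at 11765, 3684, 3334, 6923, 6243 and 3485 CPM, against 2038 to 4177 CPM. In both genes the torin 1 cultures 1, 4 and 5 were again above all DMSO cultures and the other 3 were not. The ratios were 1.57-fold for mt-Cytb (95% interval 1.03 to 2.40; edgeR adjusted p = 0.200) and 1.60-fold for mt-Co1 (1.002 to 2.57; edgeR adjusted p = 0.230), and together with mt-Co2 these were the 3 genes with an unadjusted p under 0.05.

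mt-Atp6 and mt-Co3 had log2 differences of 0.61 ± 0.33 and 0.63 ± 0.30 (SE). The complex I genes were at 0.56 ± 0.34 for mt-Nd1, 0.55 ± 0.36 for mt-Nd4, 0.47 ± 0.33 for mt-Nd5 and 0.46 ± 0.31 for mt-Nd2. A single library carried much of this: without Ctu1 iKO torin 1 replicate 1 the median of the 9 genes was 0.27. In replicates 1 and 2 alone the median was 0.92, and in replicates 3 to 6 alone 0.37. These fits of fewer libraries called 0 of 9 each (edgeR), a count that is not read as a result about the 9 genes. The replicate number as a block called 0 of 9 and 9.97% of all genes.

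RNA estimates lay nearer to 0 with wide intervals. In replicates 1 to 3 mt-Co1 RNA was at 4220, 3145 and 6054 CPM with torin 1 and at 4393, 3509 and 6397 CPM with DMSO in Ctu1 iKO cells, lower with torin 1 in each number. The median log2 difference of the 6 genes was -0.07, with 0 of 6 called (0 at an unadjusted p under 0.05, 0 with DESeq2, 0 with the block). Of all genes edgeR called 8.25%, DESeq2 16.7% and the blocked fit 35.1%. The 95% intervals, -0.70 to 0.63 for mt-Co1 and -0.63 to 0.67 for mt-Cytb, reached about as far up as the footprint estimates of 0.68 and 0.65 on the log2 scale. Without Ctu1 iKO DMSO replicate 3 the median was 0.27. The footprints beyond RNA had a median of 0.65, with 0 of 6 called by edgeR (0 at an unadjusted p under 0.05, 0 with DESeq2) and 1.77% of all genes called, or 3.27% with DESeq2. Without Ctu1 iKO torin 1 replicate 1 this median was -0.24, so its direction rested on that library.

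**Figure D4:**
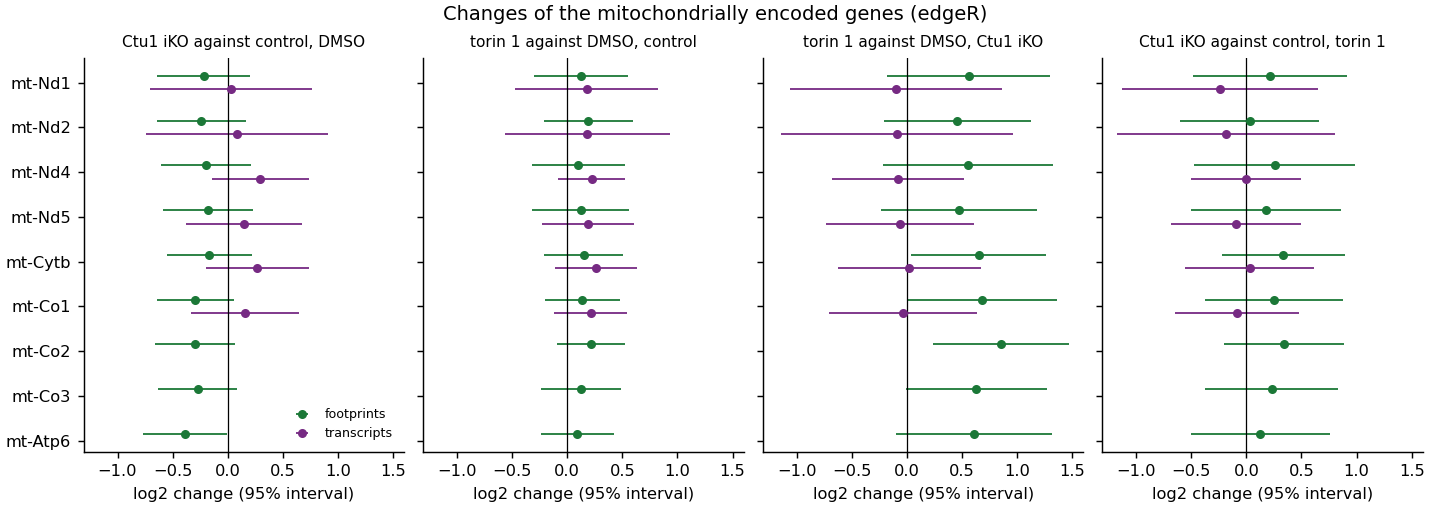
Log2 change of each gene with its 95% interval (edgeR) in 4 comparisons, for footprints of 9 genes and transcripts of 6 genes. In footprints, the intervals of mt-Co2, mt-Cytb and mt-Co1 lie above 0 with torin 1 in Ctu1 iKO cells and that of mt-Atp6 below 0 on loss of Ctu1 with DMSO, and none of these passed after adjustment.

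The cytosolic ribosomal protein genes fell here as well. Footprints of 77 of 77 fell with torin 1 in Ctu1 iKO cells, with a median of -1.59 and Rps27 at -2.61 ± 0.10 (edgeR adjusted p = 2.0e-09). Of the mitochondrial ribosomal proteins 6 of 78 fell (median -0.22), beside 8% of all genes called in either direction, with Mrpl30 at -0.69 ± 0.10. Of nuclear complex I subunits 4 of 36 fell, with Ndufb5 at -0.61 ± 0.13. Of complex III 0 of 9 were called (2 at an unadjusted p under 0.05, 2 with DESeq2). Of complex IV 2 of 11 fell, with Cox4i1 at -0.54 ± 0.11, and of complex V 3 of 14, with Atp5g2 at -1.23 ± 0.13. The median of the 9 mitochondrially encoded genes was above 0 while the medians of these nuclear lists were below it, and no test compared the lists.

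Loss of Ctu1 under torin 1 was the last simple comparison. Footprints of the 9 genes were estimated higher in Ctu1 iKO cells by a median of 0.23, from 0.03 for mt-Nd2 to 0.34 for mt-Co2. The test called 0 of 9 (0 at an unadjusted p under 0.05, 0 with DESeq2; lowest edgeR adjusted p = 0.5264), and 4.83% of all genes, or 8.49% with DESeq2. For mt-Co2 the 6 control cultures ran from 1413 to 2732 CPM around a median of 2133, and the 6 Ctu1 iKO cultures from 1656 to 4330 CPM around 2468. Without Ctu1 iKO torin 1 replicate 1 the median of the 9 genes was -0.16. Same-numbered cultures deviated together here too, and the blocked fit called 0 of 9 beside 14.4% of all genes. In the same comparison footprints of 70 of 77 cytosolic ribosomal protein genes fell (median -0.72), led by Rps12 at -1.22 ± 0.15 (edgeR adjusted p = 0.000193).

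RNA of the 6 genes under torin 1 differed by a median of -0.09 between Ctu1 iKO and control cells, with 0 of 6 called (0 at an unadjusted p under 0.05, 0 with DESeq2) and 1.31% of all genes called, or 11.3% with DESeq2. The median was 0.10 without Ctu1 iKO torin 1 replicate 2. mt-Nd1 RNA was at 1227, 1058 and 2662 CPM in Ctu1 iKO cells and at 1767, 1530 and 2731 CPM in control cells. It was lower in Ctu1 iKO in each number. With the replicate number as a block mt-Nd1 and mt-Nd2 were called lower (2 of 6, lowest edgeR adjusted p = 0.0217, 32.8% of all genes), and with replicate 4 added 0 of 6 were (33.5% of all genes). The footprints beyond RNA had a median of 0.51 with 0 of 6 called (0 at an unadjusted p under 0.05, 0 with DESeq2; 0.114% of all genes, or 1.03% with DESeq2), and -0.36 without Ctu1 iKO torin 1 replicate 1.

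Whether torin 1 acted differently with and without Ctu1 was tested as an interaction over all 4 groups. For footprints of the 9 genes the difference of the torin 1 effects had a median of 0.51, with 95% intervals between -0.52 and 1.35. The test called 0 of 9 (0 at an unadjusted p under 0.05, 0 with DESeq2) and 0.639% of all genes, or 1.09% with DESeq2. Without Ctu1 iKO torin 1 replicate 1 the median was 0.20. Of the cytosolic ribosomal protein genes 38 of 77 were called, all with a deeper fall in Ctu1 iKO cells (median -0.64), led by Rps12 at -1.17 ± 0.19. For RNA of the 6 genes the difference had a median of -0.25, with 0 of 6 called (0 at an unadjusted p under 0.05, 0 with DESeq2) and 0% of all genes, or 0.0312% with DESeq2. It was 0.045 without Ctu1 iKO DMSO replicate 3.

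**Figure D5:**
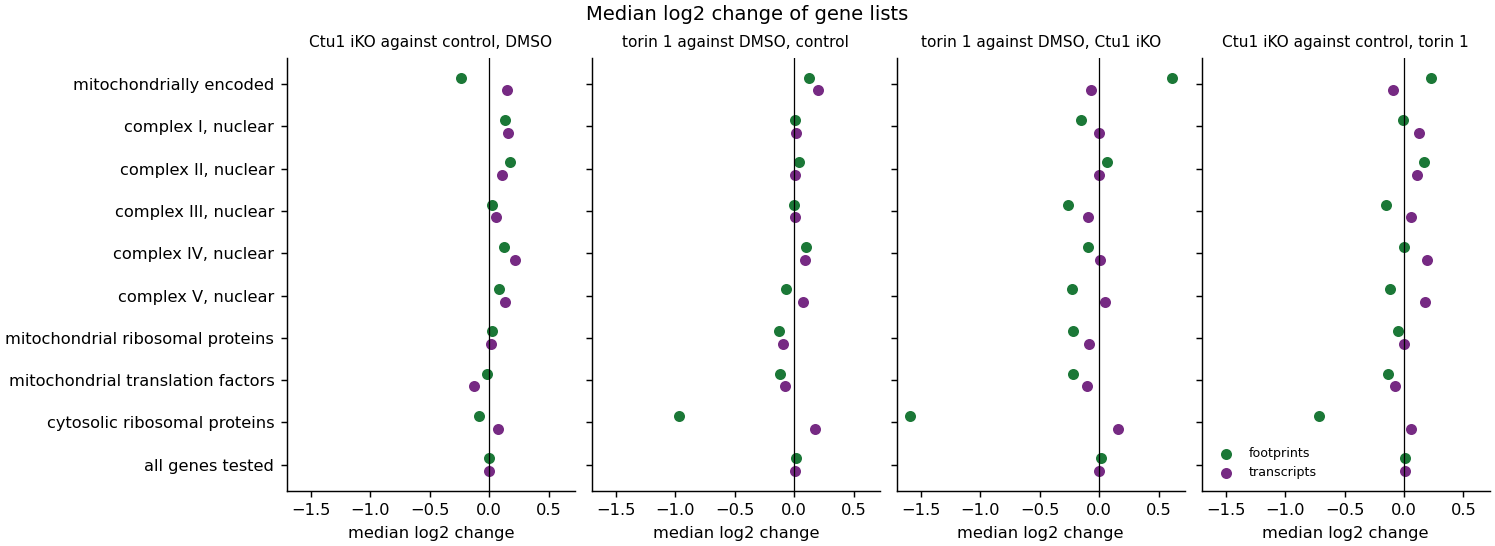
Median log2 change of each gene list (y axis: lists, x axis: log2) in 4 comparisons, for footprints and transcripts. In footprints with torin 1 the cytosolic ribosomal proteins lie at -0.97 in control and -1.59 in Ctu1 iKO cells, and the 9 mitochondrially encoded genes at 0.13 and 0.61.

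The genes that make, process and translate mitochondrial RNA are read here against the share of all genes called in footprints, in either direction: 2.66% for Ctu1 loss with DMSO, 7.24% for torin 1 in control cells, 8% for torin 1 in Ctu1 iKO cells and 4.83% for Ctu1 loss under torin 1. None of the 4 enzymes of the mitochondrial wobble uridine, Mto1, Gtpbp3, Trmu and the sulfur donor Nfs1, was called in footprints of the 4 simple comparisons with edgeR (0, 0, 1 and 1 at an unadjusted p under 0.05 in the order Ctu1 loss with DMSO, torin 1 in control, torin 1 in Ctu1 iKO, Ctu1 loss under torin 1; 0 with DESeq2). Of 8 genes of mitochondrial DNA replication 0 were called in the same 4 comparisons (edgeR; 0, 0, 1 and 0 at an unadjusted p under 0.05; 0 with DESeq2). Of 18 factors of mitochondrial RNA processing and stability 3 fell in footprints with torin 1 in control cells, the largest being Pde12, which trims poly(A) tails in mitochondria, at -0.56 ± 0.12. With torin 1 in Ctu1 iKO cells edgeR called 0 of 18 (7 at an unadjusted p under 0.05, 2 with DESeq2; median -0.23). The blocked fit in control cells called 1 higher and 5 lower (20.5% of all genes called). The Pde12 transcript fell with torin 1, by 0.64 ± 0.09 on the log2 scale in control cells and by 0.74 ± 0.14 in Ctu1 iKO cells. Of 12 mitochondrial translation factors 1 fell with torin 1 in Ctu1 iKO cells, the peptide release factor Mrpl58, at -0.44 ± 0.12. The blocked fits called 1 of these 12 lower with torin 1 in control cells (20.5% of all genes called) and 2 lower without Ctu1 under torin 1 (14.4%).

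Of 8 genes of mitochondrial DNA transcription 0 were called in footprints of the 4 simple comparisons (edgeR; 1, 0, 0 and 0 at an unadjusted p under 0.05 in the same order; 0 with DESeq2). In RNA, Tfam, the packaging and transcription factor of mitochondrial DNA, fell on Ctu1 loss with DMSO (log2 -0.30 ± 0.06; edgeR adjusted p = 0.0437). Mterf3 fell with torin 1 in control cells (-0.34 ± 0.07) and Mterf4 rose with torin 1 in Ctu1 iKO cells (0.54 ± 0.09), each 1 of 8 transcription genes, beside 5.12%, 13% and 8.25% of all genes called in the 3 comparisons. The blocked fits called 1 of the 8 higher and 2 lower in each of the torin 1 comparisons (44.1% and 35.1% of all genes). Another list held 12 nuclear genes chosen to mark mitochondrial content, and whether they follow it in these cells was not tested. In footprints 1 of 12 fell on Ctu1 loss with DMSO (2.66% of all genes called), the chaperone Hspd1, at -0.46 ± 0.08. With torin 1 in control cells 3 of 12 fell (7.24%), led by the import receptor Tomm20 at -0.70 ± 0.07, or 6 of 12 with the replicate number as a block (20.5%). With torin 1 in Ctu1 iKO cells 4 of 12 fell (8% of all genes called), with Tomm20 at -0.93 ± 0.09, and under torin 1 3 of 12 were lower without Ctu1 (4.83%), with Hspd1 at -0.67 ± 0.11, or 5 of 12 with the block (14.4%). In RNA 1 of 12 fell on Ctu1 loss with DMSO, Hspd1 again, at -0.37 ± 0.08, beside 5.12% of all genes called (DESeq2 called 1 up and 1 down). In RNA with torin 1, 0 of these 12 were called by edgeR in control cells (median 0.0088) and in Ctu1 iKO cells (median -0.0017), with 0 at an unadjusted p under 0.05 and 0 with DESeq2 in both. With the replicate number as a block 3 of 12 fell in control cells, and in Ctu1 iKO cells 1 rose and 1 fell, beside 44.1% and 35.1% of all genes called. Their part in the values of the 9 genes was not tested.

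Nuclear subunits were also called on Ctu1 loss. In footprints with DMSO, where 2.66% of all genes were called, Ndufs5 of complex I rose (1 of 36, 0.46 ± 0.09). In footprints under torin 1, where 4.83% of all genes were called, Sdhc of complex II was higher without Ctu1 (1 of 4, 0.39 ± 0.10) and Atp5g2 of complex V lower (1 of 14, -0.66 ± 0.12). The blocked fit, with 14.4% of all genes called, had 2 of 4 higher in complex II, 1 of 9 in complex III and 1 of 11 in complex IV, and lower ones in complexes I (2 of 36), IV (1 of 11) and V (1 of 14). In RNA with DMSO, where 5.12% of all genes were called, Sdhc (1 of 4, 0.30 ± 0.07) and Cox7b of complex IV (1 of 11, 0.32 ± 0.07) rose. Same-numbered libraries deviated together in this RNA comparison, and with the replicate number as a block 12 of 36 subunits of complex I, 3 of 9 of complex III, 9 of 11 of complex IV and 6 of 14 of complex V rose and 1 of complex III fell, beside 28% of all genes called. Under torin 1 the blocked fit of RNA called 9 of 36, 1 of 4, 1 of 9, 6 of 11 and 6 of 14 subunits of complexes I to V higher without Ctu1 and 1 of complex III lower, beside 32.8% of all genes, where the fit without a block called 0 (7, 1, 0, 3 and 3 at an unadjusted p under 0.05, 3, 1, 0, 1 and 3 with DESeq2).

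The genes most like the 9 over the footprint libraries were sought by Pearson's r to their mean log2 CPM among 9848 other genes. After group means were subtracted, the closest over 23 libraries were Atp8b2 (r = 0.895), mt-Nd4l (0.871), mt-Atp8 (0.830), Cd109 (0.815) and Ext2 (0.809), so 2 of the 5 were other mitochondrially encoded genes. The remaining mitochondrially encoded genes ranked lower, mt-Nd6 at 69 (r = 0.681) and mt-Nd3 at 193 (r = 0.626). Over the 4 group means the closest were Gm26965, Cdkn2aip, Dpp7, Arhgef17 and Nbeal2, each with r of at least 0.9997, which 4 points reach easily among so many genes.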

How the data were processed

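Ribosome footprints and poly(A) RNA were counted per gene in 23 samples each, matched by labelled group and replicate number. The deposited tables hold raw counts that the authors made, with no normalization. Footprints were trimmed with cutadapt 3.4, deduplicated by molecular identifiers with UMI-tools 1.1.1, freed of rRNA reads and counted with STAR 2.5.3a. The methods name the human build hg19 for the footprint alignment, the submitters' processing notes name GRCm38 and mm10, and the genes carry mouse symbols. RNA libraries were stranded and poly(A)-selected. All RNA counts were even.

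Each comparison was fitted over all genes whose mean count reached 10, with the quasi-likelihood test of edgeR 4.0.16 in R 4.3.3, with TMM normalization, Benjamini-Hochberg adjustment and a threshold of 0.05. Footprint fits used all replicates, and transcript and translational efficiency fits replicates 1 to 3. Translational efficiency was the interaction of assay and group. DESeq2 1.42.0 was an alternative, among other normalizations, filters, pseudocounts, replicate blocks and left-out libraries. The scripts were tested on simulated data. CPM are counts per 1e+06 counts of the library, and log2 CPM used a pseudocount of 1. Symbols on several entries (11 symbols on 23 entries) were left out. Named genes were the 9 genes, Ctu1, the called gene with the largest change per list, comparison and direction, and the 5 genes most like the 9. Members and lists were chosen with earlier results of these data known. Sequences and windows come from GRCm38.

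Same-numbered samples were taken as paired where every correlation of their deviations from group means over genes whose mean count reached 100 exceeded 0.1: 0.47 to 0.66 in footprints for torin 1 in control cells, 0.34 to 0.58 for Ctu1 loss under torin 1, and 0.49 to 0.84 in the 4 transcript comparisons. The numbers come from the labels. Replicates of a group differed by at least 21.1 times the counting variance in footprints and 38.3 times in RNA over 55 pairs each, so none was a repeat deposit.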

Additional observations from a re-analysis of the deposited data

Results flagged for a closer look

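Dixon's test was run 68 times, once per group of libraries for each gene and for the summed share of the 9 genes. In 7 of these a library stood farther from its nearest neighbour than the test allows, where chance gives about 1 in 20 of independent tests. The genes moved together, so the 68 are not independent, and all 7 flags came from the libraries named next. In RNA, Ctu1 iKO DMSO replicate 3 was the highest of its 5 libraries for mt-Nd1 at 2718 CPM, mt-Nd2 at 1339 CPM and mt-Nd5 at 1122 CPM, and for the summed share of the 9 genes at 1.62%. That group of 5 includes replicates 4 and 5, whose torin 1 scores of 0.59 and 0.50 lay on the other side from their label. Replicates 1 to 3 alone were not tested in this way. In footprints, Ctu1 iKO torin 1 replicate 1 was the highest of its 6 libraries for mt-Nd1 at 1987 CPM, mt-Nd4 at 2119 CPM and mt-Nd5 at 2798 CPM. The values without these libraries stand beside the results.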

How the results depend on the processing

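Estimates that were not called changed sign with the processing. For Ctu1 loss under torin 1, 13 of 108 footprint values of single genes lay on the other side of 0 under other settings and 11 of 108 with 1 library left out, and for RNA 12 of 72 and 14 of 36. For torin 1 in Ctu1 iKO cells the RNA values did so in 12 of 60 and 17 of 36 cases, and for Ctu1 loss with DMSO in 5 of 60 and 8 of 36. In efficiency, leaving out 1 library turned 6, 8, 13 and 7 of 36 values for Ctu1 loss with DMSO, under torin 1, and torin 1 in control and in Ctu1 iKO cells. Footprint values kept their sign under all settings run for Ctu1 loss with DMSO and for torin 1 in Ctu1 iKO cells. The number of genes called went from 0 to 1 of 9 (mt-Co2) for footprints with torin 1 in Ctu1 iKO cells with DESeq2 and with all 4 groups in 1 fit. With torin 1 in control cells, 1 footprint value and 2 RNA values changed sign, those of mt-Nd4 footprints without torin 1 replicate 1 (-0.0032; leaving out each library in turn gave up to 0.24), and of mt-Nd1 and mt-Nd2 RNA without torin 1 replicate 3 (-0.13 and -0.19; up to 0.47 and 0.53 without other libraries). With RNA per length of windows absent from the nuclear genome, 3 genes took another place in the order and 0 neighbours passed, although 3 of 5 steps held in 6 of 6 libraries at the smallest p that 6 libraries allow. With shared bases taken off the coding length, 7 steps passed instead of 6 in each assay. With any 1 control DMSO library left out 0 passed, because fewer libraries cannot give so small a p. The order stayed the same in both cases. The median efficiency difference without Ctu1 iKO torin 1 replicate 1 was -0.36 for Ctu1 loss under torin 1 and -0.24 for torin 1 in Ctu1 iKO cells. The cause was not tested. Scaling by library totals alone moved the median of all genes to 0.105 and 0.115 in footprints with torin 1 and to 0.158 and 0.194 in efficiency.

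With the replicate number as a block, calls were 1 of 9 for footprints with torin 1 in control cells, and in transcripts 2 of 6 for Ctu1 loss with DMSO, 2 of 6 for Ctu1 loss under torin 1, and 6 of 6 for torin 1 in control cells, or 2 of 6 there with replicates 1 to 4. In the footprint comparisons whose numbers did not pair the samples, the block called 0 of 9 for Ctu1 loss with DMSO (correlations -0.10 to 0.51, 3 of 5 libraries closest to their own number) and 0 of 9 for torin 1 in Ctu1 iKO cells (-0.04 to 0.46, 2 of 5). It changed no other call among the 9 genes.

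Leaving out 1 library at a time gave 0 calls in all comparisons. Medians then ran, in footprints, from -0.33 to -0.084 for Ctu1 loss with DMSO, -0.16 to 0.34 under torin 1, 0.048 to 0.27 for torin 1 in control cells, 0.27 to 0.73 in Ctu1 iKO cells and 0.20 to 0.62 for their difference. In transcripts they ran from -0.13 to 0.36, -0.39 to 0.10, 0.054 to 0.39, -0.35 to 0.27 and -0.54 to 0.045 in the same order. In efficiency they ran from -0.60 to 0.092, -0.36 to 1.17, -0.49 to 0.31 and -0.24 to 1.33 for the first 4.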

Other observations

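The tables list 4 further mitochondrially encoded protein genes. In control cells with DMSO their footprints were at 725 ± 160 CPM for mt-Atp8, 361 ± 101 for mt-Nd6, 329.9 ± 92 for mt-Nd3 and 296 ± 58.7 for mt-Nd4l (SD, n = 6). Their RNA repeated the split seen above. mt-Atp8, mt-Nd3 and mt-Nd4l, with 100%, 98.8% and 100% of 100-base windows identical to nuclear DNA, reached at most 0.636, 0.222 and 0.121 CPM in the 23 RNA libraries. mt-Nd6, the only one of the 13 on the other strand, with 0% of such windows, was at 176 ± 49.4 CPM in control cells with DMSO. In footprints 0 of the 4 were called by edgeR in any of the 5 comparisons, where it called between 0.639% and 8% of all genes. The widest difference was that of mt-Nd4l with torin 1 in Ctu1 iKO cells, at a log2 of 0.73 ± 0.27 (SE), with an edgeR adjusted p of 0.126, the only unadjusted p under 0.05 and a DESeq2 adjusted p of 0.0454, the only call of DESeq2 among them. DESeq2 called 11.7% of all genes in that comparison.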
